A study of Mus musculus with 4 samples.

Results

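The genes described here are 8 cytokine genes, Il6, Il1b, Il1a, Il1rn, Il18, Tnf, Il10 and Tgfb1, out of 33696 genes in the count matrices. They were taken by symbol alone, so no measured value chose them. Their counts were read in macrophages, monocytes, dendritic cells, B cells and T cells, which together held between 88.8% and 94.4% of the kept cells of a library. All mice were male C57BL/6J on the FPC diet, which adds trans-fat, palmitate, fructose and cholesterol to the feed to model steatohepatitis. Livers were sampled by ultrasound-guided fine-needle aspiration (FNA), and 12 aspirates from 3 mice were pooled into 1 single-cell library per condition. P-LC24 is the library of mice that ate 0.05% cholesterol until week 24, and P-HC24 that of mice that ate 1.25% cholesterol until week 24. All mice then ate 0.05% cholesterol until week 32, when I-LC32 was taken from the arm that had started on 0.05% and I-HC32 from the arm that had started on 1.25%, so each arm was sampled at both times. The ratio of P-HC24 over P-LC24 is called Prog and the ratio of I-HC32 over I-LC32 is called Int. With 1 pooled library per condition, differences between mice, pools and diets cannot be told apart, no test between conditions was possible, and every interval below covers counting error only. Where 4 values stand together without names they follow the order P-LC24, then P-HC24, then I-LC32, then I-HC32.

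Interleukin-6 and TNF are secreted by activated myeloid cells and act on hepatocytes, endothelium and lymphocytes, and in the liver they drive the acute phase response. Interleukin-1 beta and interleukin-18 are made as inactive precursors that inflammasome caspases cut, interleukin-1 alpha signals through the same receptor as interleukin-1 beta, and the product of Il1rn blocks that receptor. Interleukin-10 restrains myeloid activation, and TGF-beta 1, which is stored in a latent form, restrains immune cells and activates the stellate cells that lay down scar.

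On GRCm39, with the GENCODE annotation, Il6 lies at chr5:30218112-30224979 on the plus strand and Tnf at chr17:35418357-35420983 on the minus strand. Il1b (chr2:129206490-129213059) and Il1a (chr2:129140291-129152098) are neighbours on the minus strand, and Il1rn (chr2:24226865-24241506) is on the plus strand of the same chromosome. Il18 (chr9:50466081-50493633), Il10 (chr1:130947581-130952711) and Tgfb1 (chr7:25386390-25404506) are on the plus strand. All 8 are protein coding, and none overlaps another gene on its own strand, while Il6, Il1b, Il1a and Il18 overlap annotated genes on the opposite strand. The 120 bases before the annotated start of Il6, Il1b, Tnf and Il10 are shown because these 4 genes, of the 5 with higher levels in P-HC24 than in P-LC24 macrophages, held a match to a searched motif. Capitals mark matches, on either strand, to the NF-kappaB decamer or to TATAAA.
Il6, chr5:30217992-30218111, plus strand: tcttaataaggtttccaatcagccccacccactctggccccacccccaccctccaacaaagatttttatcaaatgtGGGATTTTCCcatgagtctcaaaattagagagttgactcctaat
Il1b, chr2:129213060-129213179, minus strand: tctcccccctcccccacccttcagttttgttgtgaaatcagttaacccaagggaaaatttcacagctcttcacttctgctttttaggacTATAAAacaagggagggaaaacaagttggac
Tnf, chr17:35420984-35421103, minus strand: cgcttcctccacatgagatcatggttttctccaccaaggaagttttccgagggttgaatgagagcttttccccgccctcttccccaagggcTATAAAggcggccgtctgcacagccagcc
Il10, chr1:130947461-130947580, plus strand: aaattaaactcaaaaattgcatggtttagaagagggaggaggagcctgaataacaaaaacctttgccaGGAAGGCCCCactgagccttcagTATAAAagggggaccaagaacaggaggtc
The decamer began 44 bases upstream of the start in Il6 and 52 bases upstream in Il10, and TATAAA began 31, 29 and 29 bases upstream in Il1b, Tnf and Il10. In windows of 200 bases, 6.48% of 21770 protein-coding genes held the decamer and 9.57% held TATAAA. Tgfb1, with nearly equal levels in the macrophages of all libraries, also held a decamer match, 103 bases upstream, and Il1a, Il1rn and Il18 held neither motif in the window. For Il18 the window lay before the transcript start at chr9:50476674, which is inside the gene span given above. A match describes these letters only.

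Each library kept between 4930 and 6978 cells, with a median between 6296 and 8541 UMIs (unique molecular identifiers, 1 per captured transcript molecule). Cells were classed by raw UMIs of marker genes, and the classes held very different numbers of cells. Macrophages numbered 47, 480, 85 and 652 in the 4 libraries. Monocytes numbered 169, 175, 221 and 96, dendritic cells 31, 24, 39 and 26, B cells 3141, 4383, 4705 and 4761, and T cells 992, 1044, 1534 and 967. The macrophage class carried few markers of Kupffer cells, the resident macrophages of the liver. Clec4f, a Kupffer cell gene, had a UMI in 2, 0, 1 and 1 macrophages, and the 3 Kupffer cell genes Clec4f, Cd207 and Marco summed to between 1.93 and 19.0 CPM (UMIs of a gene per 1000000 UMIs of the class in that library). Gata6, a transcription factor of large peritoneal macrophages, had a UMI in between 64.7% and 79.0% of macrophages, and the 3 peritoneal macrophage genes Gata6, Prg4 and Alox15 summed to between 4670 and 6579 CPM. The libraries shared between 17 and 41 barcodes per pair.

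Which cells held the UMIs of a cytokine differed from gene to gene. Macrophages held 38.7%, 86.0%, 59.6% and 92.4% of all Il6 UMIs. Il1a was held mostly by macrophages too, with between 68.6% and 94.3% of its UMIs there. Il18 and Tgfb1 UMIs lay mostly in B cells, the most numerous class, with between 68.5% and 82.3% of Il18 and between 56.8% and 63.9% of Tgfb1. Il1b UMIs moved between classes: neutrophils, which are not among the 5 classes, held 68.4% in P-LC24 and 45.9% in P-HC24, monocytes held 46.9% in I-LC32, and macrophages held 41.4% in I-HC32. Tnf and Il10 were spread over lymphocytes in P-LC24, where T cells held 28.5% of Tnf and B cells held 39.1% of Il10, whereas macrophages held 66.0% of Tnf and 52.9% of Il10 in P-HC24. These shares follow the number of cells in a class as well as the level per cell.

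**Figure D1:**
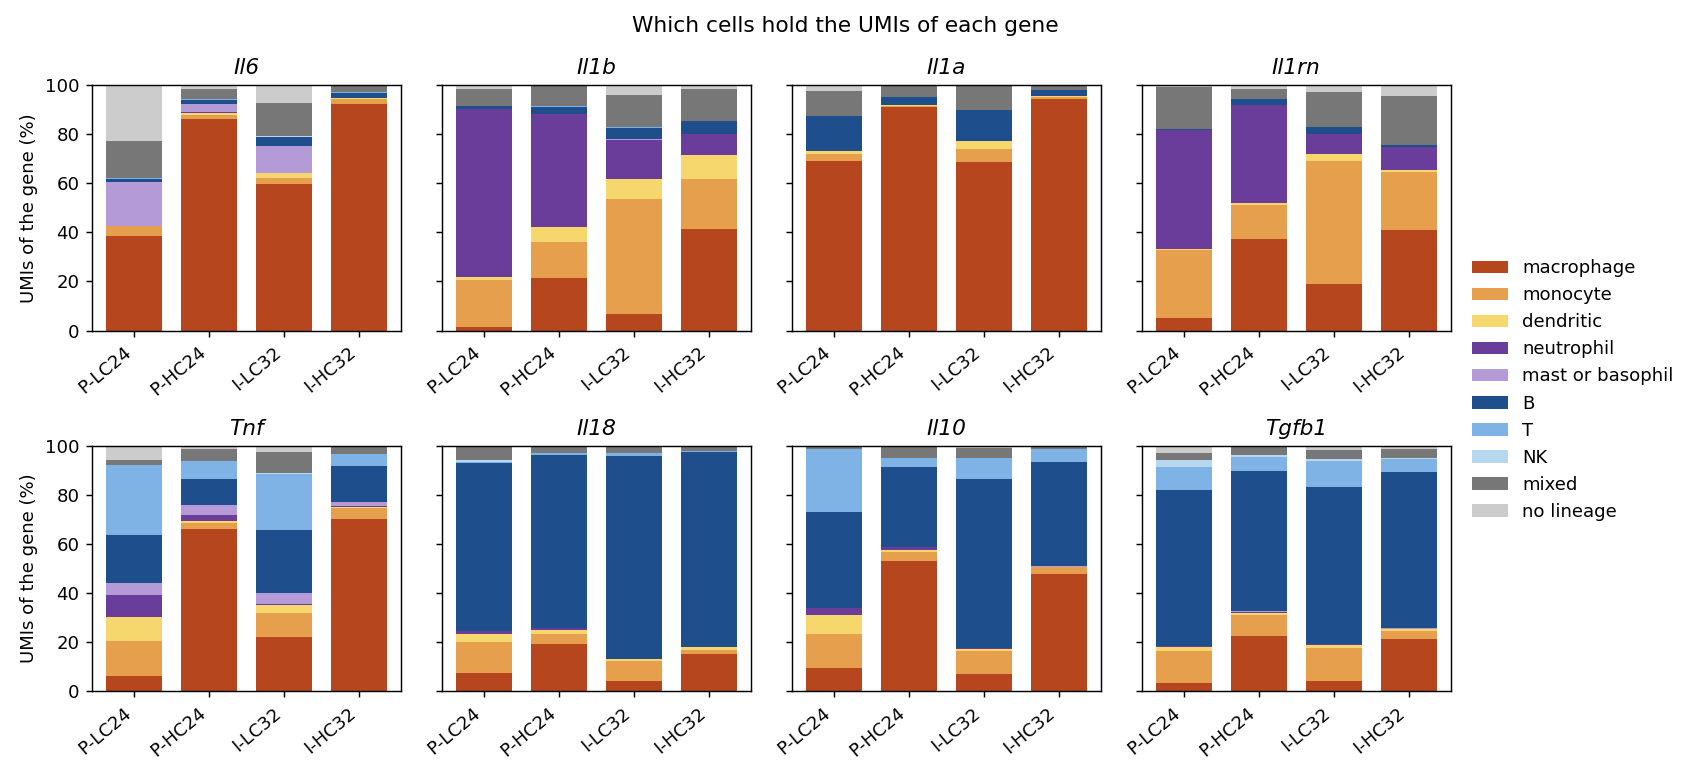
Share of the UMIs of each cytokine gene (vertical axis, percent of the UMIs in all kept cells) by cell class, with a bar for each library. Macrophages held between 38.7% and 92.4% of Il6, while B cells held over 56% of Il18 and Tgfb1 in every library; mixed cells matched several lineages and no lineage cells matched none.

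Il6 was the only one of the 8 genes whose macrophage level had 4 intervals that did not overlap. Macrophages held 101, 1910, 424 and 4727 Il6 UMIs. As levels these were 88.1 CPM (95% interval 71.7 to 107), 174 (167 to 182), 205 (186 to 225) and 336 (326 to 346). The levels stood in this order, and the high cholesterol arm was above the low cholesterol arm at both times. The Prog ratio was 1.98-fold, a log2 ratio of 0.98 (0.70 to 1.29), and the Int ratio was 1.64-fold, a log2 ratio of 0.71 (0.57 to 0.86). The I-LC32 level was also above that of P-HC24, the library sampled at the end of the high cholesterol phase. The highest macrophage of each library held 28 of 101, 34 of 1910, 41 of 424 and 43 of 4727 Il6 UMIs. The intervals, and the gap between P-HC24 and I-LC32, do not allow for such spread between cells.

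The Il6 difference was carried by many macrophages. The median macrophage held 0, 2, 2 and 5 Il6 UMIs. The share of macrophages with at least 5 Il6 UMIs was 14.9%, 32.1%, 30.6% and 51.8%. An Il6 UMI was found in 36.2%, 68.8%, 64.7% and 77.5% of macrophages, at a median depth between 20773 and 25462 UMIs. In T cells, read as the background, it was found in at most 1.55% of cells, at a median depth between 6364 and 8355 UMIs. After every cell was thinned to 3000 UMIs the macrophage shares were 16.7%, 35.3%, 33.8% and 47.6%, ranked as before thinning. All of these macrophage shares were slightly lower in I-LC32 than in P-HC24, the reverse of the CPM levels of these libraries.

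Macrophages with a Gata6 UMI had Il6 at 105, 183, 226 and 346 CPM. In this subset the Prog log2 ratio was 0.81 (0.52 to 1.11) and the Int log2 ratio 0.61 (0.45 to 0.77). The 16 macrophages without a Gata6 UMI in P-LC24 held 0 Il6 UMIs, whereas the same subset had 150, 136 and 290 CPM in the other 3 libraries. Those 16 cells had a median of 6730.5 UMIs, against 28636 in the P-LC24 macrophages with Gata6, so these subsets were not read to the same depth. The 8 immediate early genes, which include Fos, Jun and Egr1 and respond within minutes to stimulation or tissue handling, moved with Il6 as a sum. They summed to 5855, 6625, 8503 and 12679 CPM in macrophages in the same order of libraries. Fos alone did not keep this order, at 1822, 1443, 2193 and 3120 CPM. The part of these genes in the Il6 levels was not tested.

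**Figure D2:**
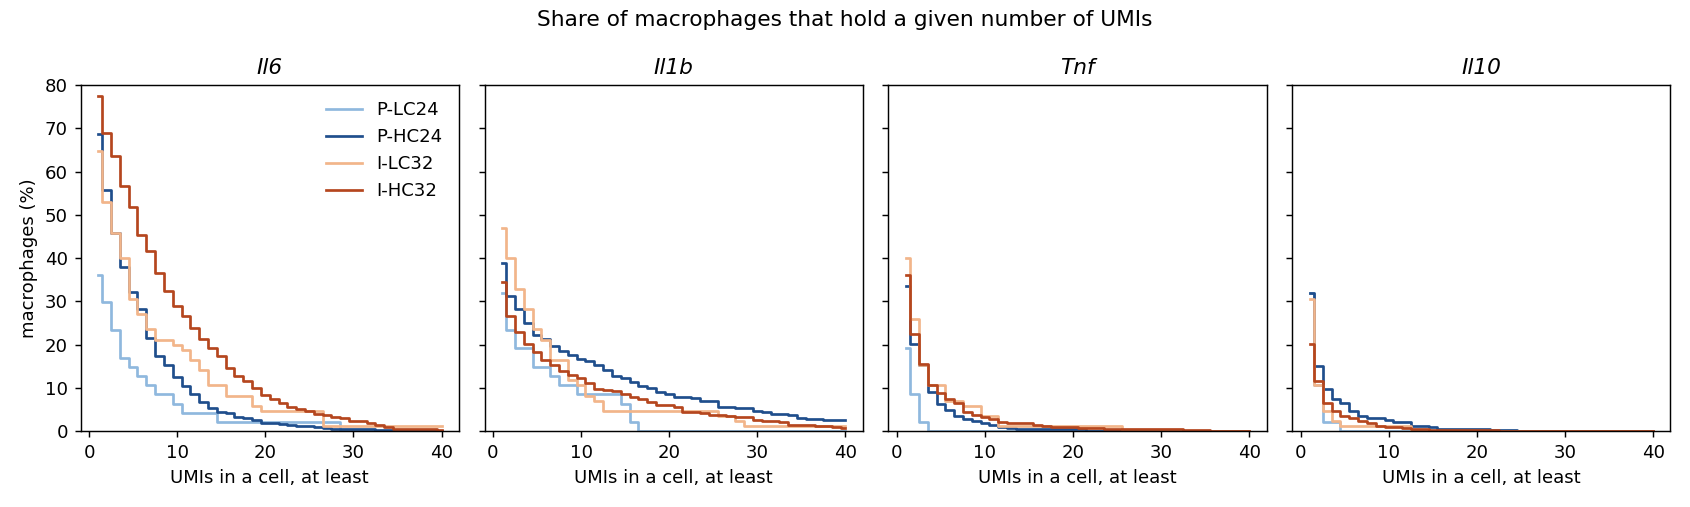
Share of macrophages (vertical axis, percent) that hold at least the number of UMIs on the horizontal axis, for Il6, Il1b, Tnf and Il10 in each library. For Il6 the whole I-HC32 line lies above the P-LC24 line, with 51.8% against 14.9% of cells at 5 UMIs or more, while Il1b, Tnf and Il10 were at 0 in most cells.

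Among the other 4 classes Il6 was lower than in macrophages in every library. Outside the 5 classes, mast cells or basophils held 18.01%, cells of no lineage 23.0% and mixed cells 14.9% of the Il6 UMIs of P-LC24. In monocytes it measured 4.91 CPM (10 UMIs), 19.6 (40 UMIs), 6.80 (18 UMIs) and 81.2 (92 UMIs). The Prog log2 ratio was 2.00 (0.98 to 3.17) and the Int log2 ratio 3.58 (2.84 to 4.40), but a single cell held 19 of the 40 UMIs in P-HC24 and another held 37 of the 92 UMIs in I-HC32. Without the highest cell of each library the log2 ratios were 1.81 and 3.10. The 3 peritoneal macrophage genes moved with Il6 in monocytes, at 18.2, 53.5, 25.3 and 113 CPM, and their part was not tested. Per 100 UMIs of these 3 genes, monocytes held 27.0, 36.7, 26.9 and 71.9 Il6 UMIs and macrophages held 1.52, 3.49, 4.39 and 5.11. Dendritic cells held 0, 20, 15 and 17 Il6 UMIs. Against the limit of 3 UMIs that a count of 0 allows in P-LC24, the P-HC24 level was 10.2-fold higher. That fold leaves out the counting error of the 20 UMIs, of which a single cell held 14.

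In lymphocytes Il6 was lower than in monocytes in every library, and lower than in dendritic cells except in P-LC24, where dendritic cells held 0 UMIs. B cells measured 0.131, 0.934, 0.599 and 2.05 CPM and T cells 0.114, 1.32, 0.173 and 2.34 CPM, so that both lymphocyte classes were highest in the libraries with the most macrophages. The summed peritoneal macrophage genes followed the same order in T cells, at 3.89, 11.98, 4.07 and 29.7 CPM. The Il6 ratios in B cells were a Prog log2 of 2.83 (1.17 to 5.18) and an Int log2 of 1.78 (1.14 to 2.47). They moved with these macrophage genes, whose part was not tested. Per 100 UMIs of these genes, B cells held 5.36, 7.88, 18.9 and 9.96 Il6 UMIs, from only 3 Il6 UMIs in P-LC24. T cells held 2.94, 11, 4.26 and 7.88, beside 1.52, 3.49, 4.39 and 5.11 in macrophages.

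Tnf showed the largest Prog ratio of the 8 genes in macrophages. It measured 12.2 CPM (6.67 to 20.5), 47.0 (43.0 to 51.2), 62.3 (52.0 to 74.1) and 66.7 (62.5 to 71.1). P-LC24, with 14 UMIs, was below the other libraries, and the 2 libraries of week 32 had overlapping intervals. The Prog log2 ratio was 1.94 (1.18 to 2.83) and the Int log2 ratio 0.10 (-0.17 to 0.37). In macrophages with a Gata6 UMI the Int log2 ratio was 0.60 (0.25 to 0.96), while the macrophages without Gata6 had 116 CPM in I-LC32 and 56.0 CPM in I-HC32. A Tnf UMI was found in between 19.1% and 40% of macrophages, and the 10% of macrophages with the most Tnf held between 63.7% and 71.4% of its UMIs.

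In monocytes Tnf measured 15.2, 9.82, 21.1 and 49.5 CPM, lowest in P-HC24 and highest in I-HC32. The Prog log2 ratio was -0.63 (-1.52 to 0.22) and the Int log2 ratio 1.23 (0.66 to 1.79), and these 2 intervals did not overlap. Monocytes with UMIs of Ace or Treml4, genes of the patrolling type, and none of Ly6c2 had a higher Tnf level than those with UMIs of Ly6c2 or Ccr2, genes of the classical type, and none of Ace or Treml4. The patrolling type had 35.4, 17.2, 46.3 and 77.9 CPM and the classical type 4.00, 9.04, 19.1 and 22.2 CPM, and the interval of the difference included 0 in P-HC24. The patrolling share of monocytes was 40.2%, 42.9%, 19.5% and 45.8%, so the makeup of the class differed between the week 32 libraries as well. Inside the patrolling type it was a log2 ratio of 0.75 (-0.16 to 1.72), and inside the classical type 0.22 (-0.93 to 1.27).

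T cells, which release TNF when activated, had Tnf at 7.20, 6.83, 11.3 and 9.64 CPM, with log2 ratios of -0.08 (-0.62 to 0.46) in Prog and -0.23 (-0.68 to 0.20) in Int. CD4 T cells without Foxp3 had 20.7, 10.1, 12.7 and 17.5 CPM, and CD8 T cells 4.57, 5.87, 10.9 and 5.50 CPM. B cells had 1.92, 2.15, 3.62 and 3.73 CPM. Dendritic cells had 22, 7, 19 and 9 Tnf UMIs, and the intervals of both of their ratios included 0.

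Among the 5 classes Il1b was higher in monocytes and dendritic cells than in macrophages in every library, and neutrophils, outside these classes, had between 4847 and 9582 CPM of it. Monocytes measured 682 CPM (646 to 718), 802 (764 to 842), 783 (749 to 817) and 973 (917 to 1032). Both comparisons were small, with log2 ratios of 0.24 (0.13 to 0.34) in Prog and 0.31 (0.21 to 0.42) in Int, of which only Int passed 1.2-fold. An Il1b UMI was found in between 73.4% and 81.1% of monocytes, against at most 2.30% of T cells. P-LC24 and P-HC24 monocytes happened to hold the same total of 2036489 UMIs in different cells.

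The monocyte types differed, with a median depth of at most 8425 UMIs in patrolling and at least 12360 in classical cells. The patrolling type had Il1b at 836, 1352, 1451 and 1258 CPM, above the classical type at 559, 605, 626 and 866 CPM in every library. The Prog log2 ratio was 0.69 (0.53 to 0.86) in the patrolling type and 0.11 (-0.07 to 0.30) in the classical type. The Int log2 ratio had the other sign in the patrolling type, -0.21 (-0.39 to -0.02), and was 0.47 (0.30 to 0.63) in the classical type. So the small differences of the whole class were not shared by its types.

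In macrophages Il1b measured 85.4 CPM (69.4 to 104), 220 (211 to 229), 144 (129 to 162) and 158 (152 to 165). P-HC24 was highest and P-LC24 lowest, with a Prog log2 ratio of 1.37 (1.07 to 1.67) and an Int log2 ratio of 0.13 (-0.04 to 0.31). The UMIs were concentrated: the median macrophage held 0 in each library, and the top 10% of cells held between 59.5% and 72.7% of them. In P-HC24, 14 macrophages held at least 5 summed UMIs of S100a8 and S100a9, the neutrophil granule genes, and these 14 cells had 492 of the 2413 Il1b UMIs. Such cells numbered 1 in P-LC24 and 0 in both week 32 libraries. Without them the Prog log2 ratio was 1.28, from 75.5 CPM in P-LC24 and 183 CPM in P-HC24. Macrophages with a Gata6 UMI had 53.9, 200, 107 and 136 CPM, with log2 ratios of 1.89 (1.49 to 2.32) in Prog and 0.35 (0.12 to 0.59) in Int. Macrophages without Gata6 had 252, 275, 264 and 260 CPM, with log2 ratios of 0.12 (-0.31 to 0.59) and -0.02 (-0.29 to 0.26). The intervals thus lay above 0 only in the cells with Gata6. In P-LC24 the cells without Gata6 numbered 16 and held 46 Il1b UMIs. Their median depth was 6730.5 UMIs, against 28636 with Gata6, so the split also followed depth.

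Macrophages that held Il6 and those that held Il1b overlapped in part. In P-HC24, 145 macrophages held UMIs of both, which is 43.9% of the 330 cells with Il6 and 78.0% of the 186 cells with Il1b. In I-HC32, 182 cells held both, 36.0% of the 505 cells with Il6 and 80.9% of the 225 cells with Il1b. Il6 was thus found in 78.0% and 80.9% of the cells with Il1b, beside 68.8% and 77.5% of all macrophages of these libraries. In I-LC32 it was found in 26 of 40 cells with Il1b, beside 64.7% of all macrophages, and in P-LC24 in 3 of 15, beside 36.2%.

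Dendritic cells, only 24 to 39 cells per library, had the largest Il1b ratio. They measured 169 CPM (136 to 207), 1920 (1780 to 2069), 525 (472 to 582) and 1148 (1051 to 1252). The Prog ratio was 11.4-fold, a log2 ratio of 3.51 (3.20 to 3.84), and the Int log2 ratio was 1.13 (0.93 to 1.33). The share of these cells with a UMI of Cd209a, a gene of monocyte-related dendritic cells, moved in the same order, at 16.1%, 70.8%, 51.3% and 65.4%, while 71.0% of the P-LC24 cells had Xcr1 or Clec9a, genes of cross-presenting dendritic cells, without Cd209a. In the Cd209a cells alone, numbering 5, 17, 20 and 17, Il1b measured 330, 2445, 750 and 1547 CPM. These levels gave log2 ratios of 2.89 (2.28 to 3.57) in Prog and 1.04 (0.82 to 1.27) in Int. The cells with Xcr1 or Clec9a and no Cd209a went the other way in Prog, with a log2 ratio of -1.66 (-3.98 to -0.05). That ratio rests on 3 Il1b UMIs from 4 cells of P-HC24, beside 63 from 22 cells of P-LC24. Siglech, another gene of the dendritic gate, had a UMI in 11 of the 31 dendritic cells of P-LC24. Only 1 of these had none of Cd209a, Xcr1 and Clec9a, so the subset with Xcr1 or Clec9a may hold more than 1 cell type. In Int that subset had a log2 ratio of 2.46 (1.70 to 3.28). The higher Prog level of the class was thus not shared by both subsets.

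Il1a, whose product shares its receptor with interleukin-1 beta, was concentrated in macrophages. It measured 47.1, 94.1, 62.3 and 92.5 CPM there and at most 15.7 CPM in any other of the 5 classes. The intervals of both high cholesterol libraries overlapped with each other and lay above those of both low cholesterol libraries. The Prog log2 ratio was 1.00 (0.60 to 1.42) and the Int log2 ratio 0.57 (0.31 to 0.84). In macrophages with a Gata6 UMI they were 0.98 (0.56 to 1.42) and 0.83 (0.51 to 1.17). In those without, the Prog log2 ratio was 1.73 (0.35 to 3.62), from 4 UMIs in P-LC24, and the Int log2 ratio -0.16 (-0.64 to 0.33).

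Il1rn, the receptor antagonist, was low in macrophages and, unlike Il6 and Il1a, was past 1.2-fold lower in both comparisons. Macrophages held 11, 74, 21 and 44 UMIs, or 9.59, 6.75, 10.1 and 3.13 CPM. The Int log2 ratio was -1.70 (-2.48 to -0.87), and the Prog log2 ratio of -0.51 had an interval from -1.43 to 0.56 that included 0 and turned to 0.97 without barcodes that matched several lineages. Macrophages without a Gata6 UMI held 9 of the 11 UMIs in P-LC24, 41 of 74 in P-HC24, 17 of 21 in I-LC32 and 15 of 44 in I-HC32. Among macrophages with Gata6 the Int log2 ratio was -0.02 (-1.53 to 1.95) and the Prog log2 ratio was 0.99 (-0.97 to 4.10), from 2 UMIs in P-LC24, whereas among those without Gata6 the Int log2 ratio was -2.53 (-3.63 to -1.44).

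Monocytes had Il1rn at 29.0 CPM (22.1 to 37.4), 13.7 (9.14 to 19.9), 20.8 (15.6 to 27.0) and 22.1 (14.3 to 32.6). P-LC24 was above P-HC24, a Prog log2 ratio of -1.08 (-1.78 to -0.40), and the Int log2 ratio was 0.09 (-0.66 to 0.79). A single cell held 24 of the 55 UMIs in I-LC32. T cells held 0 Il1rn UMIs in all 4 libraries, and 0 of 1534 cells in I-LC32 allows up to 0.196% of cells with a UMI at this depth, which sets no limit on cells that express the gene.

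Il18 had a low and nearly even level in macrophages. It measured 36.6 CPM (26.4 to 49.5), 26.0 (23.1 to 29.2), 33.3 (25.9 to 42.2) and 25.1 (22.5 to 27.8), lower in the high cholesterol library both times. The log2 ratios were -0.49 (-0.97 to 0.01) in Prog and -0.41 (-0.79 to -0.02) in Int. Without barcodes that matched several lineages the Int log2 ratio was 0.34, of the other sign. Monocytes had 33.9, 30.0, 51.4 and 41.5 CPM, and the classical type, at 38.7, 32.8, 52.5 and 50.6 CPM, was above the patrolling type, at 14.5, 19.1, 8.67 and 37.7 CPM. The log2 difference between the types had an interval above 0 in P-LC24 (1.42, 0.30 to 2.68) and I-LC32 (2.60, 1.00 to 4.91), and one that included 0 in the high cholesterol libraries.

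**Figure D3:**
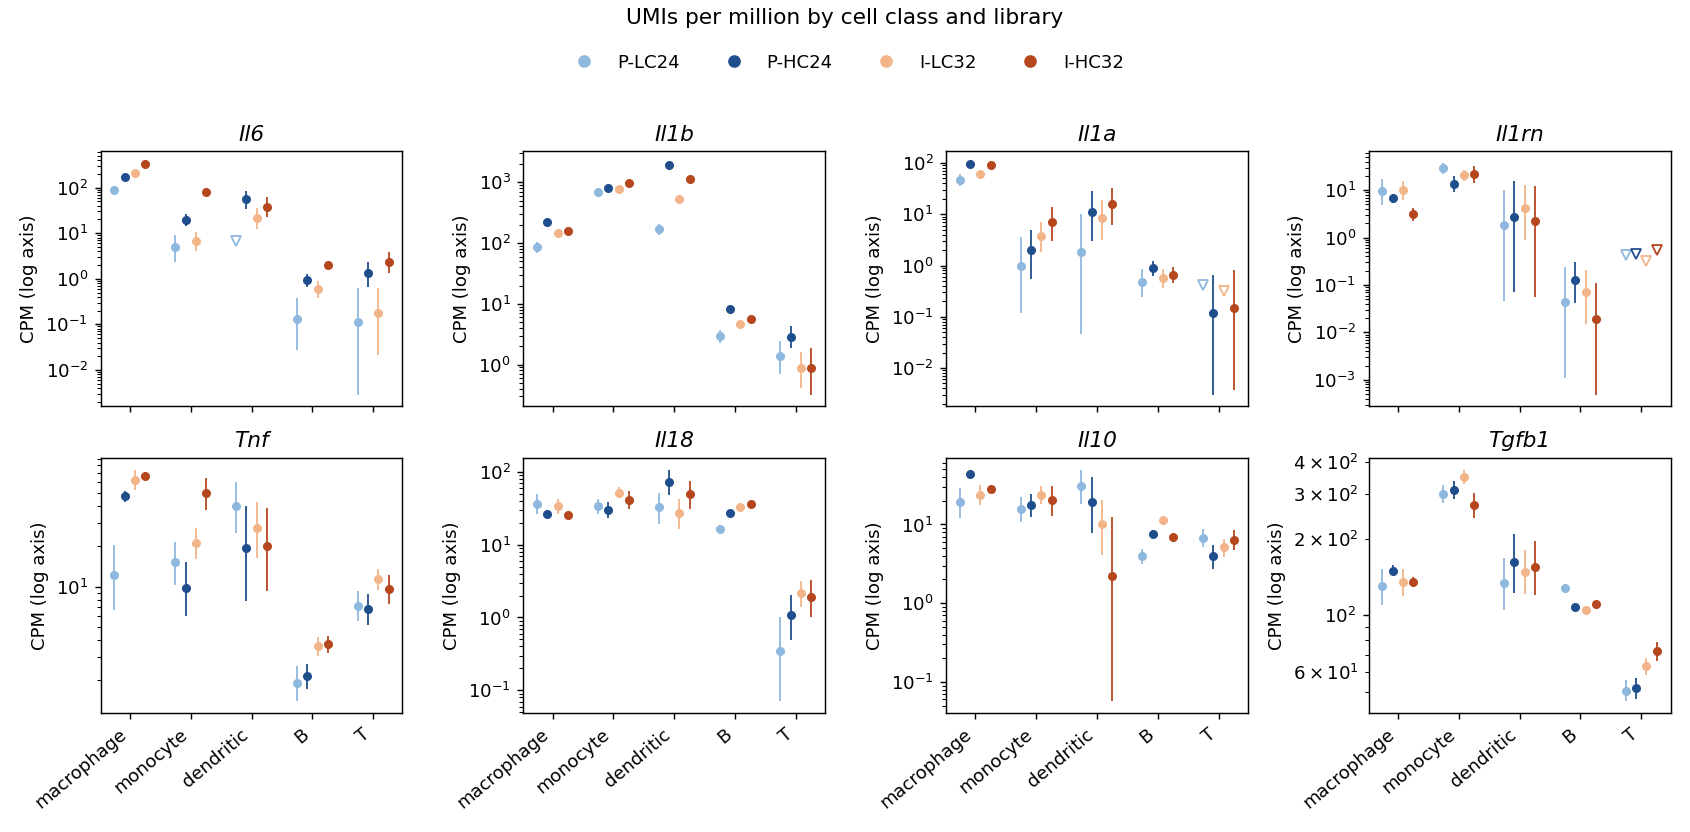
Level of each cytokine gene (vertical log axis, CPM within the class) in 5 cell classes and 4 libraries, with points for levels, bars for exact 95% Poisson intervals and open triangles at the upper limit where no UMI was found. Il6 and Il1a were highest in macrophages in every library, and Tgfb1 and Il1rn in monocytes.

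B cells carried most of the Il18 in each library. Their level was 16.6 CPM (14.9 to 18.3), 27.3 (25.6 to 29.0), 33.2 (31.5 to 35.0) and 36.0 (34.3 to 37.6). P-LC24 was lowest, with a Prog log2 ratio of 0.72 (0.55 to 0.89), and the Int log2 ratio was 0.11 (0.01 to 0.22). T cells, which have little Il18, had at most 2.17 CPM.

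The Il18 of B cells lay mainly in B-1-like cells. These were B cells with UMIs of at least 2 of the 4 genes Zbtb32, Bhlhe41, Cd9 and Cd5, and B-1 cells are innate-like B cells of the body cavities that secrete natural antibodies. They made up 11.5% (10.4 to 12.7), 24.4% (23.1 to 25.7), 28.03% (26.8 to 29.3) and 35.7% (34.3 to 37.1) of B cells. Their median depth was between 13209 and 13708 UMIs, against 5274 to 6506 in the other B cells, so that detection of the 4 genes also followed depth. They had Il18 at 43.5, 49.7, 55.8 and 50.6 CPM and the other B cells at 8.15, 10.8, 13.5 and 18.3 CPM. B-1-like cells held between 62.5% and 78.2% of the Il18 UMIs of B cells. Inside B-1-like cells the Prog log2 ratio was 0.19 (-0.02 to 0.40) and the Int log2 ratio -0.14 (-0.25 to -0.02), and inside the other B cells they were 0.41 (0.10 to 0.72) and 0.43 (0.22 to 0.65). The Prog ratio of the whole class was larger than that of either subset while the share of B-1-like cells was also higher in P-HC24.

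Il10 in B cells had the same home and a different course. B cells measured 3.93 CPM (3.16 to 4.84), 7.57 (6.73 to 8.49), 11.3 (10.3 to 12.3) and 6.85 (6.15 to 7.60), with I-LC32 highest. The Prog log2 ratio was 0.94 (0.60 to 1.30) and the Int log2 ratio -0.72 (-0.92 to -0.51), of the other sign. B-1-like cells held between 75.6% and 86.0% of the Il10 UMIs, at 12.5, 15.4, 20.5 and 9.60 CPM, against 1.26, 1.85, 3.23 and 3.54 CPM in the other B cells. Inside B-1-like cells the Prog log2 ratio shrank to 0.30 (-0.09 to 0.71), whereas the Int log2 ratio was -1.09 (-1.32 to -0.87), and inside the other B cells the Int log2 ratio was 0.13 (-0.34 to 0.61). The lower Il10 level of B cells in I-HC32 was therefore found in B-1-like cells, whose share was highest in that library.

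**Figure D4:**
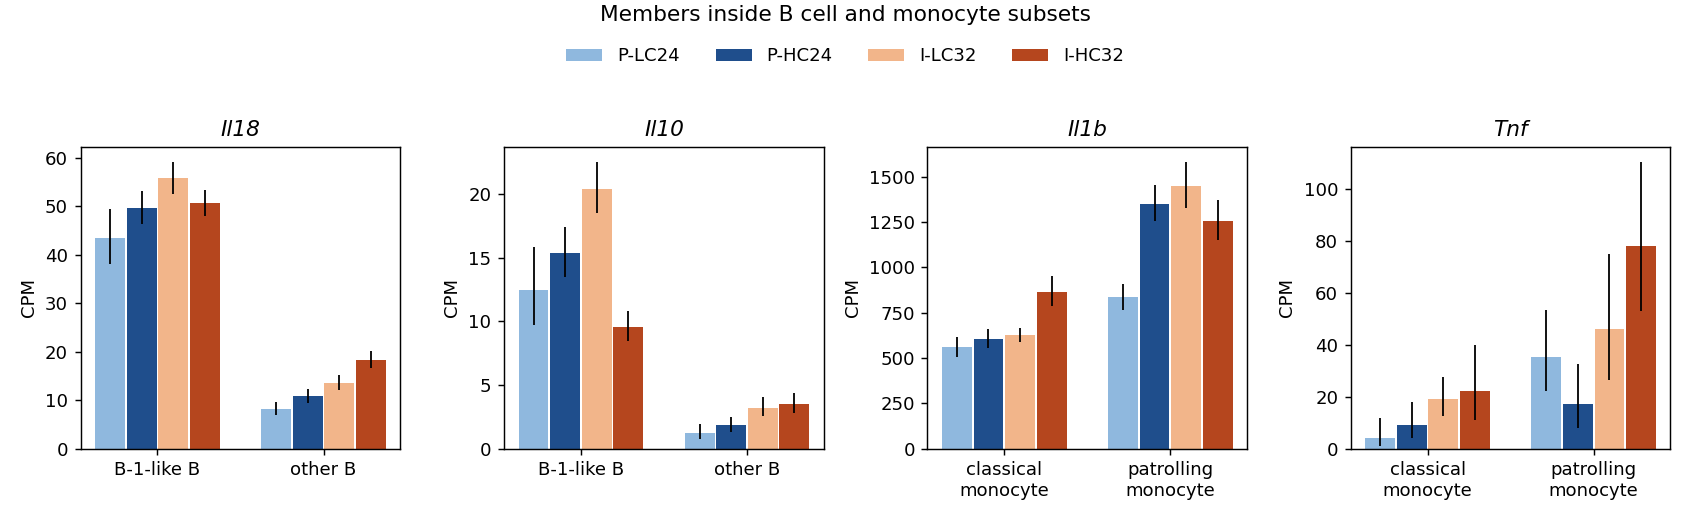
Levels (vertical axes, CPM within the subset) of Il18 and Il10 in B-1-like and other B cells, and of Il1b and Tnf in classical and patrolling monocytes, with a bar for each library and exact 95% Poisson intervals. Il10 in B-1-like cells was 20.5 CPM in I-LC32 and 9.60 CPM in I-HC32, and Il1b was higher in patrolling than in classical monocytes in every library.

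Il10 in macrophages was highest in P-HC24. It measured 19.2 CPM (12.02 to 29.04), 43.4 (39.6 to 47.5), 23.7 (17.5 to 31.3) and 28.4 (25.6 to 31.3), with log2 ratios of 1.18 (0.56 to 1.87) in Prog and 0.26 (-0.17 to 0.72) in Int. The share of macrophages with an Il10 UMI did not follow this, at 31.9%, 31.9%, 30.6% and 20.2%, and the number of macrophages with at least 5 UMIs was 0 of 47, 31 of 480, 1 of 85 and 23 of 652. With 47 cells in P-LC24 a difference in the share of cells with many UMIs was not detectable. In macrophages with Gata6 the Prog log2 ratio was 1.13 (0.46 to 1.88), and in those without it was 1.43 (-0.14 to 3.73). Monocytes measured 15.7, 17.7, 23.8 and 20.3 CPM, and the intervals of both ratios included 0. Dendritic cells held 17, 7, 7 and 1 UMIs.

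T cells had Il10 at 6.75, 3.95, 5.11 and 6.43 CPM, with log2 ratios of -0.77 (-1.43 to -0.13) in Prog and 0.33 (-0.27 to 0.92) in Int. Regulatory T cells, marked by Foxp3, are a known source of interleukin-10, but the 10, 7, 27 and 16 T cells with a Foxp3 UMI held 0 Il10 UMIs, which at these cell numbers limits little. CD8 T cells held 54 of the 59 Il10 UMIs in P-LC24 and 23 of 33 in P-HC24, a log2 ratio of -1.12 (-1.89 to -0.39) inside the subset. In I-HC32, CD4 T cells without Foxp3 held 25 of 44 UMIs, against 2 of 59 in I-LC32, a log2 ratio of 3.59 (1.59 to 6.71) inside the subset. The highest T cell of each library held 9 of 59, 10 of 33, 14 of 59 and 9 of 44 Il10 UMIs. Only 3, 1, 3 and 2 T cells held at least 5, a concentration that the intervals do not cover. The share of CD8 T cells among T cells was 63.9%, 59.5%, 53.1% and 36.0%.

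Tgfb1 differed little between the libraries in most classes. Macrophages measured 130, 150, 135 and 136 CPM, with log2 ratios of 0.20 (-0.04 to 0.46) and 0.01 (-0.17 to 0.19). Monocytes had the highest level of the 5 classes in every library, at 299, 311, 349 and 270 CPM, with a Prog log2 ratio of 0.06 (-0.10 to 0.22) and an Int log2 ratio of -0.37 (-0.56 to -0.18). Dendritic cells measured 134, 161, 148 and 154 CPM.

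Among lymphocytes, B cells had Tgfb1 at 128, 108, 105 and 110 CPM and T cells at 50.5, 51.6, 63.0 and 72.2 CPM. The B cell Prog log2 ratio of -0.25 (-0.32 to -0.18) did not pass 1.2-fold. B-1-like cells had less of it than the other B cells, with a log2 difference between -0.56 and -0.23 over the libraries. Inside B-1-like cells the Int log2 ratio was 0.28 (0.20 to 0.37). T cells with Foxp3 had 127 CPM (31 UMIs in 27 cells) in I-LC32, against 49.1 CPM in the CD4 T cells without Foxp3, a log2 difference of 1.37 (0.73 to 1.99). In I-HC32 it was 0.71 with an interval from -0.27 to 1.57, and at week 24 each library had 2 Tgfb1 UMIs in such cells.

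**Figure D5:**
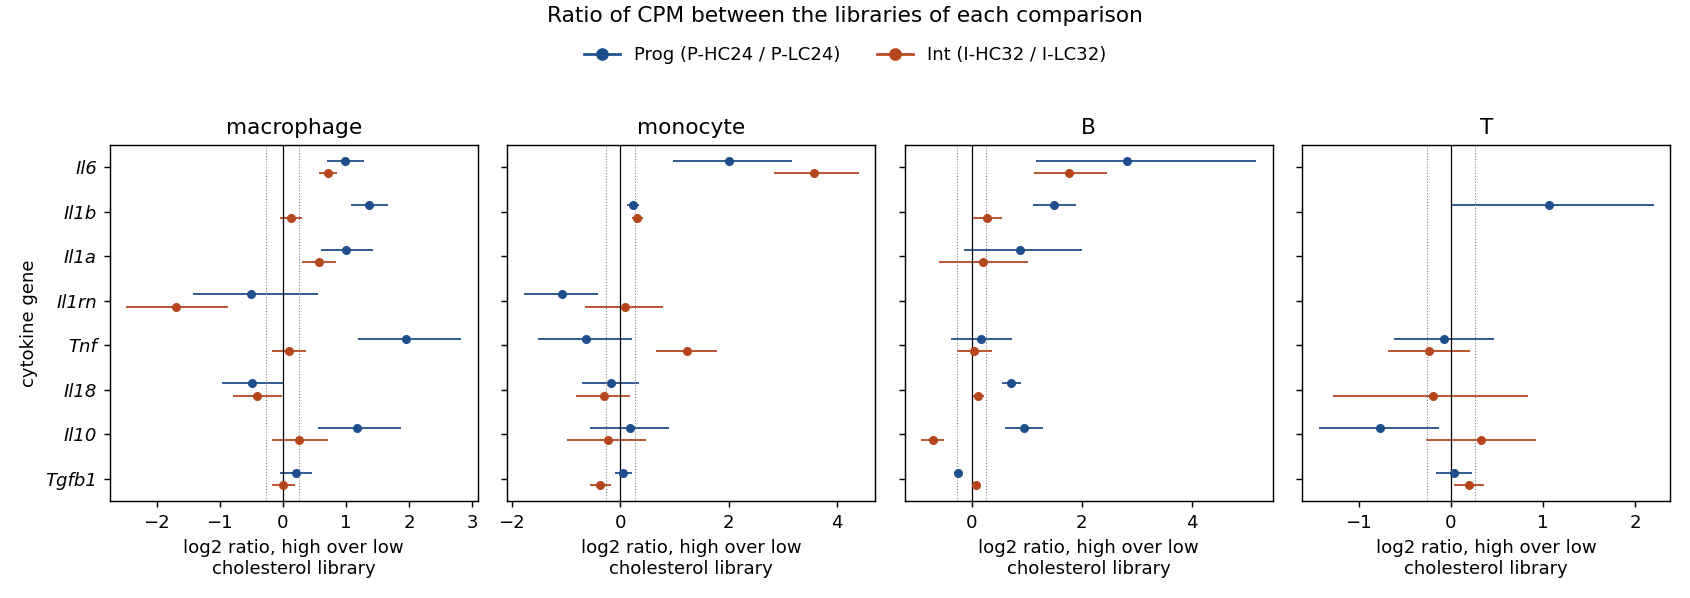
Log2 ratio of the level in the high over the low cholesterol library (horizontal axis) for each cytokine gene with at least 20 UMIs over both libraries, at week 24 (Prog) and week 32 (Int), in macrophages, monocytes, B cells and T cells. Bars are exact 95% intervals for counting error and dotted lines mark 1.2-fold; Tnf in macrophages was at 1.94 in Prog and 0.10 in Int, and Il10 in B cells at 0.94 and -0.72.

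Counted over classes, a ratio past 1.2-fold is a description of 2 libraries and not a test. In macrophages, 5 of 8 genes were higher in Prog (Il6, Il1b, Il1a, Tnf and Il10) against 23.8% of all genes compared in that class, and 2 were lower (Il1rn and Il18) against 43.2%. The intervals of the 5 higher genes lay above 0, and those of the 2 lower genes included 0. In Int, 2 of 8 were higher (Il6 and Il1a) against 17.1% and 2 were lower (Il1rn and Il18) against 40.2%. The median log2 ratio of the 8 genes was 0.99 in Prog and 0.11 in Int, beside -0.17 and -0.16 over all genes.

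In monocytes, 1 of 7 genes was higher in Prog (Il6) against 21.8% of all genes, and 2 were lower (Il1rn and Tnf) against 37.9%. In Int, 3 were higher (Il6, Il1b and Tnf) against 25.0% and 2 were lower (Il18 and Tgfb1) against 25.9%. In dendritic cells, 4 of 6 were higher in Prog (Il6, Il1b, Il18 and Tgfb1) against 23.6% and 2 lower (Tnf and Il10) against 52.3%, and in Int 3 of 5 were higher (Il6, Il1b and Il18) against 29.8% and 1 lower (Tnf) against 30.2%. In monocytes the shares were at most 3 of 7, and in dendritic cells only Il1b had an interval clear of 0 in Int. Tgfb1 in dendritic cells turned to a Prog log2 ratio of -0.11 as a mean over cells.

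In B cells, 5 of 7 genes were higher in Prog (Il6, Il1b, Il1a, Il18 and Il10) against 16.3% of all genes, and 0 were lower against 47.3%. In Int, 2 were higher (Il6 and Il1b) against 19.8% and 1 was lower (Il10) against 19.2%. The highest B cell of each library held 8 of 67, 46 of 319, 14 of 193 and 48 of 288 Il1b UMIs. In T cells, 1 of 4 was higher (Il1b, with 24 UMIs in P-HC24) against 14.1% and 1 lower (Il10) against 47.3% in Prog, and 1 was higher (Il10) against 24.5% and 0 lower against 18.7% in Int. That Il10 ratio turned to -0.18 at a mitochondrial limit of 5%. Il6, Il1b and Il1a had far higher levels in macrophages than in B cells. When the profile of barcodes dominated by haemoglobin was subtracted as free RNA at 5% of the class total, the Prog log2 ratio in B cells was 2.42 for Il1b and -1.25 for Il1a, and Il6 was left with no finite ratio.

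The receptors, release factors and response genes of these cytokines, 43 genes on 3 lists, are given next beside the shares over all genes of a class. In macrophages 39 could be compared in Prog, with 11 higher (all genes 23.8%) and 9 lower (43.2%), and 40 in Int, with 10 higher (17.1%) and 12 lower (40.2%). Their median log2 ratio was 0.03 in Prog and -0.08 in Int, beside -0.17 and -0.16 over all genes. The 13 response genes gave 6 higher and 1 lower in Prog, and the receptors and decoys 4 higher and 5 lower of 14. In Int the receptors and decoys gave 1 higher and 7 lower of 14. The gene with the highest ratio was Il1r2, the decoy receptor for interleukin-1, in Prog (log2 ratio 1.44, 0.04 to 3.35) and Nfkbia, the NF-kappaB inhibitor that NF-kappaB itself induces, in Int (0.89, 0.80 to 0.98). The lowest were Itgav, an integrin that activates latent TGF-beta, in Prog (-1.12, -1.45 to -0.77) and Tgfbr1, a TGF-beta receptor, in Int (-1.32, -1.60 to -1.03).

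In monocytes 35 pathway genes could be compared in Prog, with 6 higher (all genes 21.8%) and 10 lower (37.9%), and 38 in Int, with 8 higher (25.0%) and 9 lower (25.9%). Pycard, the inflammasome adaptor that serves interleukin-1 beta and interleukin-18 release, was highest in Prog, at 360 CPM in P-HC24 and 177 CPM in P-LC24 (log2 ratio 1.02, 0.84 to 1.21), and Adam17, the enzyme that sheds TNF, was lowest (-0.72, -1.03 to -0.42). In Int the highest was Ltbp1, a latent TGF-beta binding protein (2.52, 1.96 to 3.12), at 80.4 CPM in I-HC32 monocytes beside 1560 CPM in the macrophages of that library, and Bcl3, an NF-kappaB cofactor, was lowest (-1.10, -1.66 to -0.58). Dendritic cells gave 31 genes in Prog, with 13 higher (all genes 23.6%) and 10 lower (52.3%), and 33 in Int, with 9 higher (29.8%) and 14 lower (30.2%). Nfkbia (1.80, 1.47 to 2.14) and Skil, a SMAD inhibitor (-0.42, -0.85 to -0.01) were their extremes in Prog, and Il1r2 (1.70, 1.28 to 2.12) and Icam1 (-2.44, -3.49 to -1.54) in Int.

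In T cells 38 pathway genes could be compared in Prog, with 3 higher (all genes 14.1%) and 16 lower (47.3%), and 40 in Int, with 22 higher (24.5%) and 6 lower (18.7%). Their median log2 ratio was -0.20 in Prog and 0.29 in Int, beside -0.23 and 0.04 over all genes of T cells. Socs3, which STAT3 induces downstream of interleukin-6 and interleukin-10 and which restrains their signal, was highest in Prog at 54.2 CPM in P-LC24 and 98.4 CPM in P-HC24 (log2 ratio 0.86, 0.70 to 1.03). Il1rap, the accessory chain of the interleukin-1 receptor, was lowest in Prog (-0.80, -1.07 to -0.54), and in Int the extremes were Casp4, an inflammatory caspase (1.55, 1.38 to 1.72), and Icam1, an adhesion molecule (-0.74, -0.98 to -0.51).

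Among 41 pathway genes in B cells, Prog had 7 higher (all genes 16.3%) and 14 lower (47.3%), while Int had 9 higher (19.8%) and 7 lower (19.2%). The highest were Thbs1, an activator of latent TGF-beta, in Prog (3.08, 2.16 to 4.18) and Ltbp1 in Int (4.12, 3.40 to 4.94). Thbs1 measured 3.71 CPM in P-HC24 B cells and 1610 CPM in the macrophages of that library, and Ltbp1 6.65 and 1560 CPM in I-HC32, and the part of free macrophage RNA was not tested. Their lowest were Smad7, an inhibitor of TGF-beta signals, in Prog (-0.58, -0.67 to -0.49), and Il18r1, a chain of the interleukin-18 receptor, in Int (-0.82, -1.39 to -0.26). Socs3 was also higher in B cells, with log2 ratios of 1.15 (1.07 to 1.23) in Prog and 0.74 (0.68 to 0.80) in Int.

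Over the 20 points given by 5 classes and 4 libraries, which share libraries and classes, the pattern of Il6 was most like that of Glmp (Pearson r of log2(CPM + 1) 0.95), H2-D1 (0.95) and Ppib (0.94). Among the 8 genes themselves Il6 was closest to Il1a (0.93), and Il1b to Il1rn (0.83). The genes most like Il1b were Hfe, Sowahc and Ptpro (0.97 to 0.98), and those most like Il1a were Ssr4, Carhsp1 and Ppib (0.96 to 0.97). Il18 was most like Cdc42bpb, Ctsh and Rassf4, Il1rn most like Arhgef10l, Sirpb1c and Rnf217, and Tgfb1 most like Prkcd, Tpd52 and Rnf130, all above 0.95. Tnf (Ube2e2, Ifnar2 and Ier3) and Il10 (Def8, Serpinb8 and Peli2) had no gene above 0.93. These correlations mostly describe which class holds a gene.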

How the data were processed

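The 4 deposited matrices hold whole UMI counts that the authors made with Cell Ranger 9.0.1 on GRCm39, and the ambient RNA correction in the study's methods was not repeated here. Barcodes were kept with at least 500 UMIs, at least 300 genes and at most 10% mitochondrial UMIs, and the highest Scrublet scores (scanpy 1.11.5), 0.8% per 1000 cells, were removed as doublets, which leaves doublets that score low. A cell was assigned to a lineage with at least 3 UMIs from at least 2 of its marker genes, and to the lineage with 3 times the UMIs of any other where several matched. UMIs were summed per class and library. Levels are CPM with exact Poisson intervals, shares have exact Clopper-Pearson intervals, and ratios have exact conditional binomial intervals, all at 95%. Only the ratio intervals were tested on simulated data, with counts drawn under counting error alone. That test could not show how they behave with spread between cells or pools. Ratios were counted for genes with at least 20 UMIs over both libraries, past 1.2-fold. Depth was between 38519588 and 77031496 UMIs in the kept cells of a library. Named genes were the 8 cytokine genes, the pathway genes with the highest and lowest ratio in each class among those with at least 100 UMIs, Socs3 in B cells, which was added after its values were seen, and the 3 genes most like each cytokine gene. The genes, lists and gates were chosen with earlier results of these data known. Alternatives changed the gates, filters, doublet removal, scaling, fold and free RNA, and 4 more, among them leaving out the highest cells and cells with granule genes, were chosen after seeing the data. Promoter sequence was read from GRCm39 with GENCODE starts. The software was scipy 1.17.1, numpy 2.4.6 and pandas 2.3.3 under Python 3.11.15, with figures from matplotlib 3.10.9.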

Additional observations from a re-analysis of the deposited data

Results flagged for a closer look

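In 2 places the week 24 and week 32 ratios passed 1.2-fold in opposite directions with intervals that did not overlap. Tgfb1 in monocytes and in B cells changed sign as well, but did not pass 1.2-fold in both comparisons. Il10 in B cells had a log2 ratio of 0.945 in Prog and -0.717 in Int. Tnf in monocytes had -0.632 in Prog and 1.226 in Int. With 1 library per condition the difference between the 2 comparisons was not tested against a spread between pools.

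Cells outside the 5 classes held 4 of the cytokine genes at levels above those in the 5 classes. Neutrophils had Il1b at 9033, 9582, 8650 and 4847 CPM over the libraries, from P-LC24 to I-HC32, and Il1rn at 189, 149, 111 and 104 CPM. Their number was 124, 122, 28 and 20 cells, and the 20 cells of I-HC32 had the lowest level of both genes.

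Mast cells or basophils, numbering 13, 33, 18 and 34, had Il6 at 705 CPM in P-LC24, 430 in P-HC24 and 916 in I-LC32, against 57.0 in I-HC32, where it was below the macrophage level. The 5 genes that define this class summed to 1936, 37322, 3426 and 38279 CPM in it, so its cells differed between the low and high cholesterol libraries, and the part of this in the Il6 levels was not tested. Their Tnf levels were 150, 180, 309 and 143 CPM.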

How the results depend on the processing

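Of 32 gene and class pairs compared in Prog 16 were higher and 7 lower past 1.2-fold, and of 31 in Int 11 were higher and 6 lower. Over all genes of a class, between 14.1% and 23.8% were higher and between 37.9% and 52.3% lower in Prog. In Int these shares were between 17.1% and 29.8% higher and between 18.7% and 40.2% lower. They belong to the main settings and not to the variants that follow. With at least 100 UMIs required, the Prog counts were 10 higher and 1 lower. The Prog count of lower pairs was 4 without barcodes that matched several lineages, and 3 without the highest cell of each class and library, an alternative chosen after seeing the data. At 1.5-fold the Int counts were 7 higher and 2 lower. Relative to the median gene the counts were 21 and 7 in Prog and 12 and 6 in Int. Il1rn in macrophages reversed in Prog, to a log2 ratio of 0.97 without barcodes that matched several lineages and 0.99 with Gata6 cells only, the latter chosen after seeing the data. Il18 in macrophages reversed in Int, to 0.34, without barcodes that matched several lineages. Tgfb1 in dendritic cells was -0.11 in Prog as a mean over cells, Il1a in B cells -1.25 in Prog after subtraction of free RNA, and Il10 in T cells -0.18 in Int at a mitochondrial limit of 5%. Of the remaining values, 691 stayed inside their counting interval and 56 moved outside it with the same direction or without a call. The causes were not tested. Il6 in dendritic cells has no finite Prog ratio and was not varied. No paired analysis was possible because each condition has 1 library. Low counts in the 47 macrophages of P-LC24 and in dendritic cells limit every ratio there.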
